A study of Mus musculus with 6 samples.

Results

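Small nucleolar and Cajal body RNAs are short noncoding RNAs that steer chemical modification of other RNAs. They were represented in mouse oocytes by 54 genes, out of 19938 genes that had a probe set naming them alone. The members were all genes whose symbol begins with Snord, Snora or Scarna and that had a probe set listing no other gene, and the brightest probe set over all arrays stood for each gene. There were 31 C/D box RNAs (Snord), 20 H/ACA box RNAs (Snora) and 3 Cajal body RNAs (Scarna). A further 41 probe sets that list a small RNA together with other genes were not used for the members.

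C/D box RNAs bind fibrillarin and guide methylation of ribose in ribosomal RNA, while H/ACA box RNAs bind dyskerin and guide the conversion of uridine to pseudouridine. A few members of both classes act instead in the cutting or folding of the ribosomal RNA precursor. Cajal body RNAs do the same work on the spliceosomal RNAs, in a nuclear body of their own. In vertebrates most of these RNAs lie in introns of other genes, often genes of ribosomal proteins, and are freed when the intron is spliced out and trimmed. A growing oocyte makes large amounts of ribosomes, and in the mature germinal vesicle oocyte the nucleolus turns compact and less active.

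The study asked how the oocyte transcriptome depends on Brwd1, which encodes a chromatin protein with bromodomains and WD repeats. Wildtype females and females homozygous for a Brwd1 mutation, both of the B6/C3H background and 2 to 6 months old, were given 5 IU of equine chorionic gonadotropin 44 h before their oocytes were taken. Each of 3 wildtype and 3 mutant samples held 100 oocytes at the germinal vesicle stage, with the nucleus still intact, and was hybridised to 1 Affymetrix array. The labels do not describe the allele and do not state that the pools are of separate animals. The spread behind each p-value is therefore that of these 6 samples and may be technical.

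Levels below are log2 values, and a difference is the mutant mean minus the wildtype mean on that scale. Brwd1 itself lay between 8.91 and 9.08 in wildtype and between 4.41 and 4.56 in mutant samples. All 10 oocyte markers, among them Zp3 and Gdf9, were above the background guide of 4.48, which is the 95th percentile of 1210 olfactory and vomeronasal receptor probe sets, and their median ran from 11.48 to 11.61 over the 6 samples. Of 9 granulosa and cumulus markers, 5 were above the guide, with medians of 4.46 to 4.83 in wildtype and 4.37 to 4.79 in mutant samples, and of 6 immune and blood markers 4 were, with medians of 4.69 to 4.98 and 4.85 to 4.96. None of these 25 markers passed the threshold (limma, Benjamini-Hochberg adjusted p under 0.05). The highest mean over the 6 samples was 8.97 in the granulosa and cumulus list, for Nr5a2, and 7.75 in the immune and blood list, for Pecam1. Of the 6 immune and blood markers 5 were higher in the mutant. Among them C1qb, a complement gene of macrophages, was at 5.74, 5.76 and 6.49 in the wildtype samples, against 6.71, 6.92 and 7.06, a difference of 0.90 (SE 0.210; limma, adjusted p = 0.162) without overlap, and Ptprc and Csf1r were under the guide in all samples. The part of these markers in the results was not tested.

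The sequence tables used here held stretches of 2 members, because an annotated microRNA hairpin overlaps each of them. Both are shown because no other member had a sequence there. Both RNAs were lower in every mutant sample than in every wildtype sample. The stretch of Snord33 is its 5′ end, nucleotides 1 to 28 of 82, with the core of the C box in capitals. The C box is the element, together with the D box near the other end, that the C/D proteins bind. The stretch of Scarna13 covers nucleotides 209 to 273 of 275, with the ACA triplet in capitals, the element 3 nucleotides before the 3′ end that gives the H/ACA class its name. Both are on the minus strand of GRCm38.p6, at chr7:45126918-45126945 and chr12:105031077-105031141, and are credited to RefSeq.
Snord33: agcuugUGAUGAgacaucucccacucau
Scarna13: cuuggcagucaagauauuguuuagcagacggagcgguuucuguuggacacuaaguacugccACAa
The C box letters UGAUGA were searched on the RNA strand in the first 28 bases of all 1005 hairpins of the same table and occurred in 0.796% of them. This window has the length of the Snord33 stretch, but the place of that stretch in its own hairpin was not taken into account. The letters ACA stood at the corresponding distance from the end, as the fourth to second base from it, in 6.57%. These matches describe the letters only.

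No member passed the threshold over all 23410 probe sets tested. With limma the smallest Benjamini-Hochberg adjusted p among the 54 was 0.122, and 0.137% of all probe sets passed. At an unadjusted p under 0.05, 12 members were lower and 0 higher in the mutant, where 7.4% of all probe sets were lower and 7.3% higher at that level. With limma's trend and robust settings 0 members passed too. Large differences among the C/D box RNAs ran in 1 direction. Of the 31, 9 were lower by at least 1 and 0 were higher by at least 1, against 0.15% and 0.0769% of all probe sets. These shares are not compared at like spread, since the median pooled SD was 0.51 for the C/D box RNAs and 0.10 for all probe sets. Of the 35 tested probe sets that were lower by at least 1, 11 belonged to members, covering 10 genes.

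The C/D box RNAs are taken first. Their median difference was -0.38, against 0.010 over all probe sets, and 21 of 31 were lower (46.2% of all probe sets). Counted without regard to level, 10 of 31 had every mutant sample below every wildtype sample (9.66% of all probe sets) and 1 had the opposite (10.1%). The guide was passed by 19 of the 31 on their mean over all arrays, some of them through the wildtype samples alone.

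Snord57 lies in an intron of Nop56, the gene of a core protein of the C/D particle itself. Its levels were 6.17, 5.66 and 5.70 in wildtype 1, 2 and 3 and 3.37, 4.65 and 4.04 in mutant 1, 2 and 3. The groups did not overlap, and 2 of the mutant values were under the background guide. The difference was -1.82 (SE 0.313, 95% interval -2.57 to -1.08, n = 3 per group; limma, adjusted p = 0.122), 3.54-fold on the measured values and limited by background in the mutant.

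Snord38a stood at 6.21, 4.66 and 5.58 in the wildtype and at 3.60, 3.89 and 3.83 in the mutant samples. All mutant values were under the guide, and the wildtype values were spread over more than 1 log2 unit. The difference was -1.71 (SE 0.354; limma, adjusted p = 0.144). Snord33, in an intron of the ribosomal protein gene Rpl13a and shown above with its C box, was at 6.98, 6.89 and 6.69 in the wildtype and at 5.14, 6.21 and 5.49 in the mutant samples. Its wildtype values were close together, the groups did not overlap and all values were above the guide. The difference was -1.24 (SE 0.254, 95% interval -1.84 to -0.64; limma, adjusted p = 0.144).

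Snord49a lies in the noncoding gene 2410006H16Rik, whose introns also hold Snord49b. Snord49a was at 7.15, 7.25 and 7.15 in the wildtype and at 6.32, 6.04 and 4.44 in the mutant samples. Mutant 3 was far under the other mutant samples, while the wildtype samples had an SD of only 0.058. The difference was -1.58 (SE 0.451; limma, adjusted p = 0.214). Snord104 stood at 6.91, 7.52 and 6.17 in the wildtype and at 5.47, 5.94 and 5.58 in the mutant samples, again without overlap. Here the wildtype samples were the more variable. Its difference was -1.20 (SE 0.321; limma, adjusted p = 0.198).

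Snord16a, in an intron of the ribosomal protein gene Rpl4, was at 7.85, 7.70 and 7.41 in the wildtype and at 7.24, 4.92 and 6.70 in the mutant samples. The size of its difference, -1.37 (SE 0.546; limma, adjusted p = 0.316), drew largely on mutant 2. Snord47, 1 of many small RNAs in the introns of the noncoding gene Gas5, was at 7.37, 6.16 and 7.33 and at 5.63, 6.20 and 4.40. Its groups overlapped, since mutant 2 lay above wildtype 2, and the difference was -1.54 (SE 0.509; limma, adjusted p = 0.256).

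Snord118 encodes U8, which acts in processing of the ribosomal RNA precursor, and no annotated gene spans it. Its levels were 7.55, 5.92 and 7.09 in the wildtype samples, against 5.42, 6.19 and 5.63 in the mutant ones, and the groups overlapped at wildtype 2. The difference was -1.11 (SE 0.413; limma, adjusted p = 0.291). The remaining C/D box RNA lower by at least 1 was Snord61, in an intron of Rbmx, at 3.47, 3.28 and 5.37 and at 2.96, 2.82 and 2.68. All values but that of wildtype 3 were under the guide. The size of its difference, -1.22 (SE 0.516; limma, adjusted p = 0.341), drew largely on that sample. Over the omissions of an array it ran from -1.60 to -0.555.

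**Figure D1:**
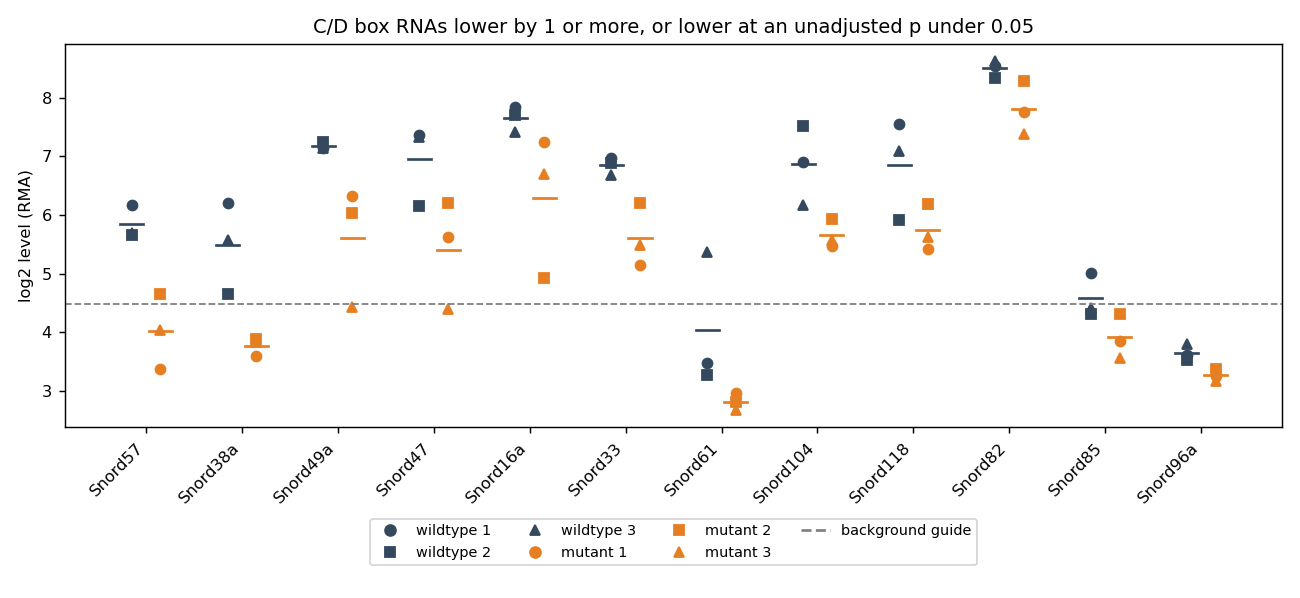
Log2 levels of the 12 C/D box RNAs that were lower by at least 1 or lower at an unadjusted p under 0.05, by sample; short bars are group means of 3 samples, and the dashed line is the background guide of 4.48. Mutant samples lie under wildtype samples in 9 of the 12 genes, and overlap in Snord47, Snord118 and Snord85. The 12 were picked for being lower, so this count is no separate result (9.66% of all probe sets had the mutant lower without overlap).

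Of the C/D box RNAs lower by less than 1, Snord82 had the highest signal of the class. It lies in an intron of Ncl, which encodes the nucleolar protein nucleolin, and stood at 8.55, 8.33 and 8.62 in the wildtype and at 7.76, 8.28 and 7.38 in the mutant samples. The groups were separated by 0.05 between wildtype 2 and mutant 2. The difference was -0.69 (SE 0.216; limma, adjusted p = 0.235). Snord85 was at 5.02, 4.32 and 4.41 and at 3.86, 4.32 and 3.56, with a difference of -0.67 (SE 0.243; limma, adjusted p = 0.284). All its values but that of wildtype 1 were under the guide, and the groups met at 4.32, which counts as overlap. Snord96a, at 3.61, 3.53 and 3.80 against 3.25, 3.38 and 3.17, differed by -0.38 (SE 0.0919; limma, adjusted p = 0.172) with all values under the guide. Snord14e, in an intron of the chaperone gene Hspa8, was at 7.37, 6.75 and 7.69 against 6.20, 7.27 and 6.37, so its difference of -0.66 (SE 0.333; limma, adjusted p = 0.416) came with overlapping groups.

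The other 18 C/D box RNAs had differences between -0.95 and 0.46. At the low end were Snord42a at -0.95 (SE 0.472), Snord53 at -0.88 (SE 0.467) and Snord73b at -0.73 (SE 0.321), each with a wildtype SD above 0.7 (limma, adjusted p = 0.405, 0.435 and 0.360). Snord53 and Snord73b had means under the guide in both groups, and without wildtype 1 Snord53 was at -0.28. Snord55 was at 6.09, 6.04 and 5.73 against 5.80, 6.32 and 5.82, a difference of 0.027 (SE 0.164; limma, adjusted p = 0.953). At the high end Snord58b was at 0.46 (SE 0.241; limma, adjusted p = 0.427), with overlapping groups. The 1 gene with every mutant sample above every wildtype sample was Snord8, at 4.69, 4.68 and 4.71 against 4.74, 4.94 and 4.80, a difference of 0.13 (SE 0.0679; limma, adjusted p = 0.416). Its spread was the smallest of the class, with a pooled SD of 0.073.

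**Figure D2:**
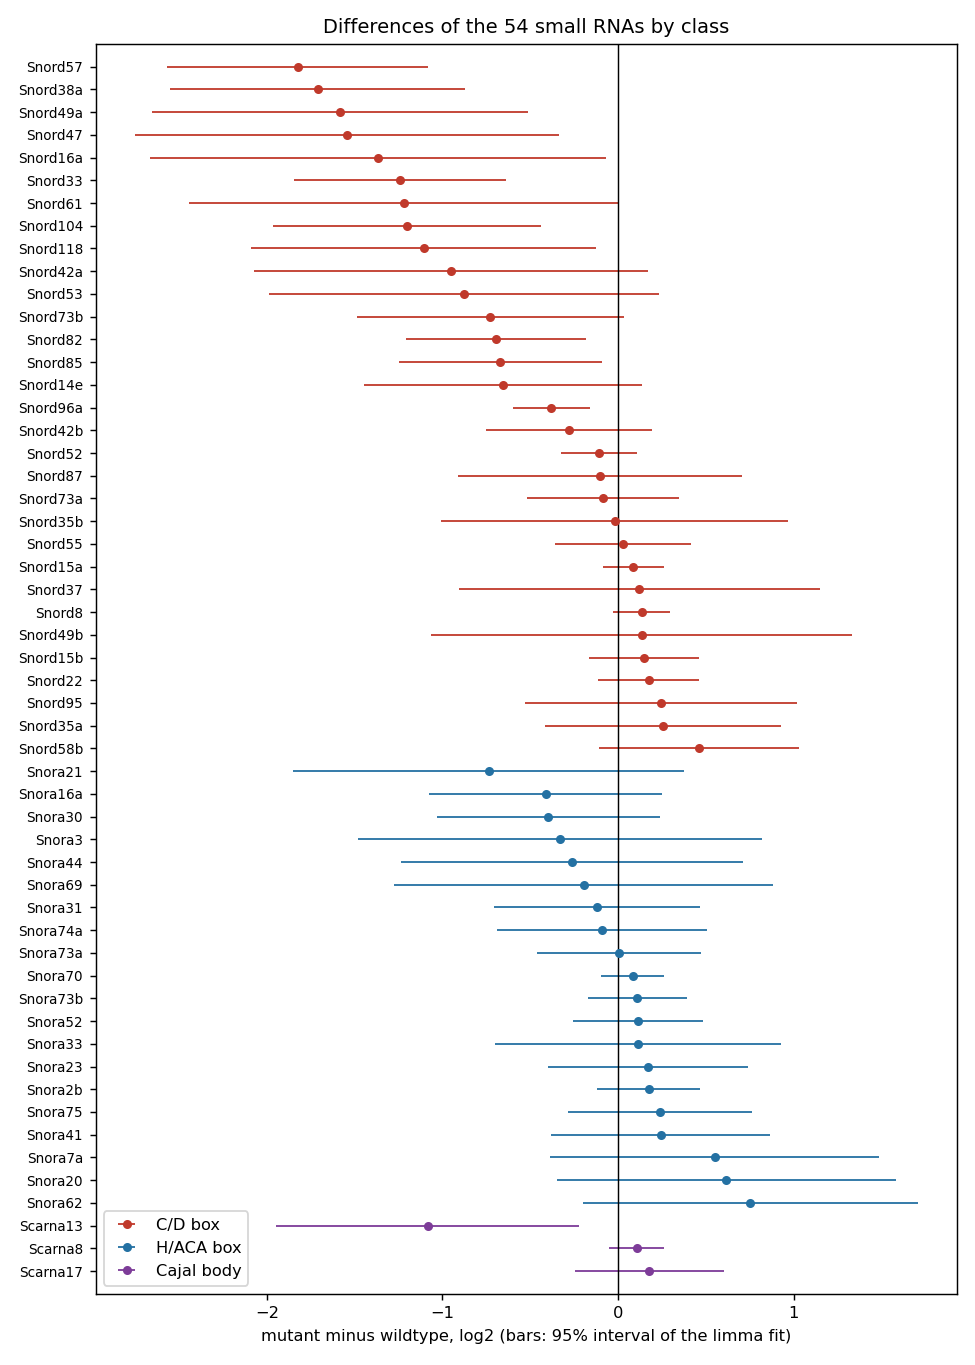
Mutant minus wildtype differences (log2) of all 54 members, ordered within each class, with 95% intervals of the limma fit and n = 3 samples per group. Among C/D box RNAs 9 lie at or under -1 and the highest is 0.46, whereas H/ACA box RNAs lie between -0.74 and 0.75.

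The H/ACA box RNAs were centred near 0. Their median difference was 0.097, 8 of 20 were lower and 12 higher, and their groups overlapped in all 20, against 9.66% and 10.1% of all probe sets without overlap in either direction. None had an unadjusted p under 0.05, and none differed by 1 or more. The difference between the classes was not tested. The median level of its probe sets was 6.22, and that of the C/D box RNAs 4.63, which does not compare amounts of RNA between genes.

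Snora62, in an intron of the ribosomal protein gene Rpsa, had the highest difference. It was at 5.70, 6.35 and 5.64 in the wildtype and at 7.59, 6.23 and 6.13 in the mutant samples, so the difference of 0.75 (SE 0.402, 95% interval -0.20 to 1.71; limma, adjusted p = 0.436) drew on mutant 1. Snora20, in an intron of the chaperonin gene Tcp1, was at 8.76, 7.37 and 8.88 against 9.21, 9.11 and 8.54, with a difference of 0.62 (SE 0.406; limma, adjusted p = 0.524). Snora21, in an intron of Rpl23, had the lowest difference, -0.74 (SE 0.468; limma, adjusted p = 0.510), at 5.67, 4.49 and 6.13 against 4.27, 5.42 and 4.39. In these 3 genes the samples of 1 genotype were as far apart as the genotypes.

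Bright members of the class had the same kind of spread. Snora3, in an intron of Rpl27a, was at 9.0, 7.64 and 8.94 in the wildtype and at 8.61, 8.68 and 7.30 in the mutant samples, a difference of -0.33 (SE 0.484; limma, adjusted p = 0.785). Snora33, in Rps12, was at 7.98, 7.48 and 7.58 against 8.38, 8.01 and 6.99, and differed by 0.11 (SE 0.342; limma, adjusted p = 0.903). Snora75, in Ncl beside Snord82, was at 7.96, 7.74 and 7.18 against 8.06, 7.99 and 7.55, and differed by 0.24 (SE 0.221; limma, adjusted p = 0.652). Snora30, in Srcap, differed by -0.40 (SE 0.267; limma, adjusted p = 0.535), and its mutant 3 stood lowest, at 5.95. The dim members Snora16a at -0.41 and Snora2b at 0.17 had mean levels under the guide (limma, adjusted p = 0.535 and 0.559).

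The 3 Cajal body RNAs did not share a direction. Scarna13, shown above and lying in the noncoding gene Snhg10, was at 7.46, 7.75 and 6.22 in the wildtype and at 6.09, 6.12 and 5.97 in the mutant samples. The groups did not overlap, the mutant samples were close together, and wildtype 3 was 0.10 above the highest of them. The difference was -1.08 (SE 0.363; limma, adjusted p = 0.260). Without wildtype 3, the lowest wildtype sample, it was -1.55 and passed (limma, adjusted p = 0.0267). Scarna17, the member with the highest signal, was at 8.93, 8.75 and 8.54 against 8.54, 9.02 and 9.19, and differed by 0.18 (SE 0.179; limma, adjusted p = 0.685). Scarna8, in Haus6, was under the guide in all samples and differed by 0.11 (SE 0.0661; limma, adjusted p = 0.4997).

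**Figure D3:**
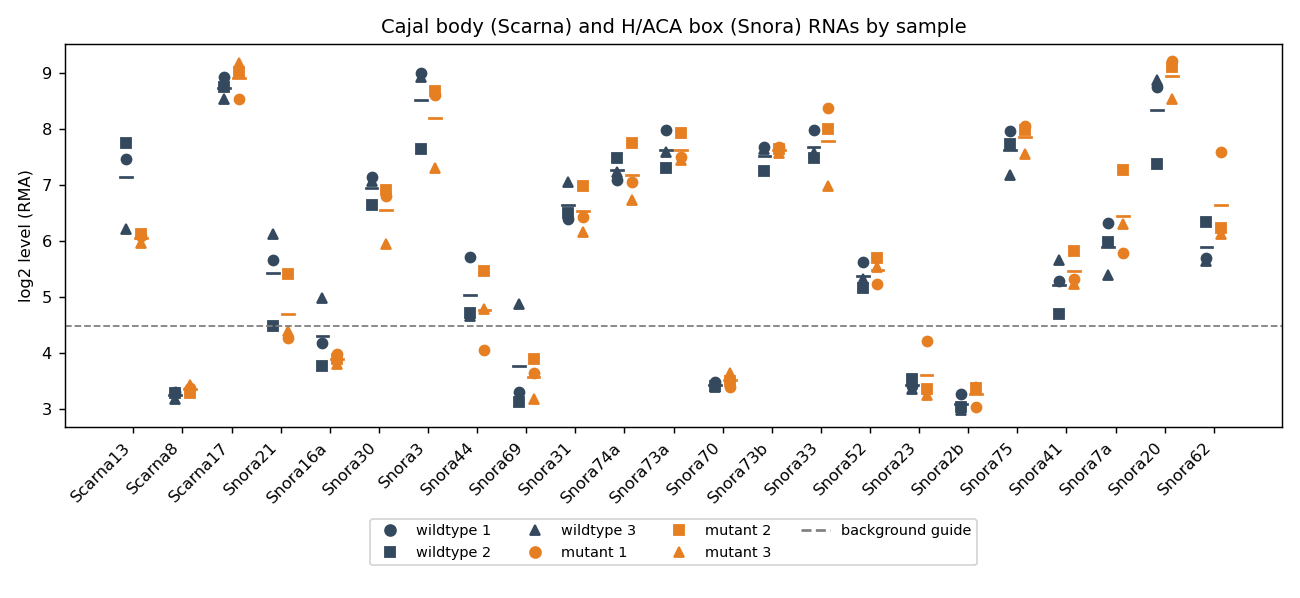
Log2 levels of the 3 Cajal body RNAs and the 20 H/ACA box RNAs by sample; short bars are group means of 3 samples, and the dashed line is the background guide of 4.48. The groups are apart in Scarna13 only, where wildtype 3 at 6.22 lies just above the mutant samples.

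Host genes were located with the RefSeq gene table of GRCm38.p6 as the gene whose span holds the small RNA. A host was found for 53 members, in 43 genes, of which 16 encode ribosomal proteins and 11 are noncoding. The strand of the small RNAs was not in that table. A probe set naming the host alone was present for 25 hosts, which carry 29 members. Where a host had several, such as Rps12 with 14 and Rpl23a with 13, the brightest stood for it. Where these probe sets and those of the small RNAs lie in the genome was not checked. Of these 25 hosts, 0 passed the threshold (limma, adjusted p under 0.05), 3 had an unadjusted p under 0.05 (14.7% of all probe sets did), and their median difference was -0.0067. In 7 hosts every mutant sample lay above every wildtype sample and in 1 below, where 10.1% and 9.66% of all probe sets did.

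Replicates of the host genes were on the median closer together than those of the small RNAs. The median pooled SD was 0.058 for the hosts and 0.44 for the members, and 24 of 25 hosts were above the guide, all but Rbmx, with a median level of 9.94 over all of them. The host differences lay between -0.32 and 0.28. Gas5 was at 10.24, 10.10 and 10.18 in the wildtype and at 10.43, 10.46 and 10.35 in the mutant samples, a difference of 0.24 (SE 0.0641; limma, adjusted p = 0.199), while Snord47 from its introns was at -1.54. As the mean of its 4 probe sets the difference of Gas5 was -0.063. Nop56 was at 8.90, 8.71 and 8.26 against 8.64, 8.48 and 8.52, a difference of -0.077 (SE 0.158), while Snord57 was at -1.82. Rpl4 differed by 0.050 (SE 0.0572) and Snord16a by -1.37, and Ncl by 0.057 (SE 0.0566) and Snord82 by -0.69 (limma, adjusted p = 0.852, 0.723 and 0.681 for Nop56, Rpl4 and Ncl). Other hosts of the small RNAs described above were at 0.080 for Rpsa, 0.077 for Hspa8, 0.063 for Rpl23, 0.060 for Tcp1 and 0.023 for Srcap. Lower in the mutant were Rps12 at -0.023, Rpl23a (host of Snord42a) at -0.027, Rbmx at -0.033, Rpl27a at -0.043 and Wdr43 (host of Snord53) at -0.053. So were Chd8 (host of Snord8) at -0.17, Kansl2 (host of Snora2b) at -0.20 and Rps3a1 (host of Snord73b) at -0.20. The signs of Rpl23, Srcap, Rps12 and Rpl4 turned in other processing.

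The difference between a member and its host was compared within each array for all 29 pairs, by an exact permutation test over the samples, two-sided. With 3 samples per group the smallest p it can give is 0.1, so no pair could pass. In 6 pairs the member was lower against its host in every mutant than in every wildtype sample: Snord57, Snord47, Snord16a, Snord61, Snord82 and Scarna8 (exact permutation p = 0.1 each, adjusted over the 29 pairs 0.414). In 1 pair it was higher, Snord15a against Rps3. Of all single probe sets, 9.66% had every mutant sample below every wildtype sample and 10.1% above. No such share was computed for contrasts of pairs. In 3 of these 7 pairs a probe set at background is involved: Snord15a and Scarna8 were under the guide in every sample, Snord61 was in all but wildtype 3, and its host Rbmx was in every sample. Scarna8 itself was at 0.11, so its contrast of -0.17 rests on its host. Rps3 itself differed by -0.32 (SE 0.113; limma, adjusted p = 0.276) and Haus6, the host of Scarna8, by 0.28 (SE 0.0773; limma, adjusted p = 0.210). Hosts of members lower by at least 0.5 had differences between -0.20 and 0.24. Across the 29 pairs, the differences of members and hosts had a Pearson's r of -0.12 and a Spearman's rho of 0.083, where the pairs share arrays and some share a host.

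**Figure D4:**
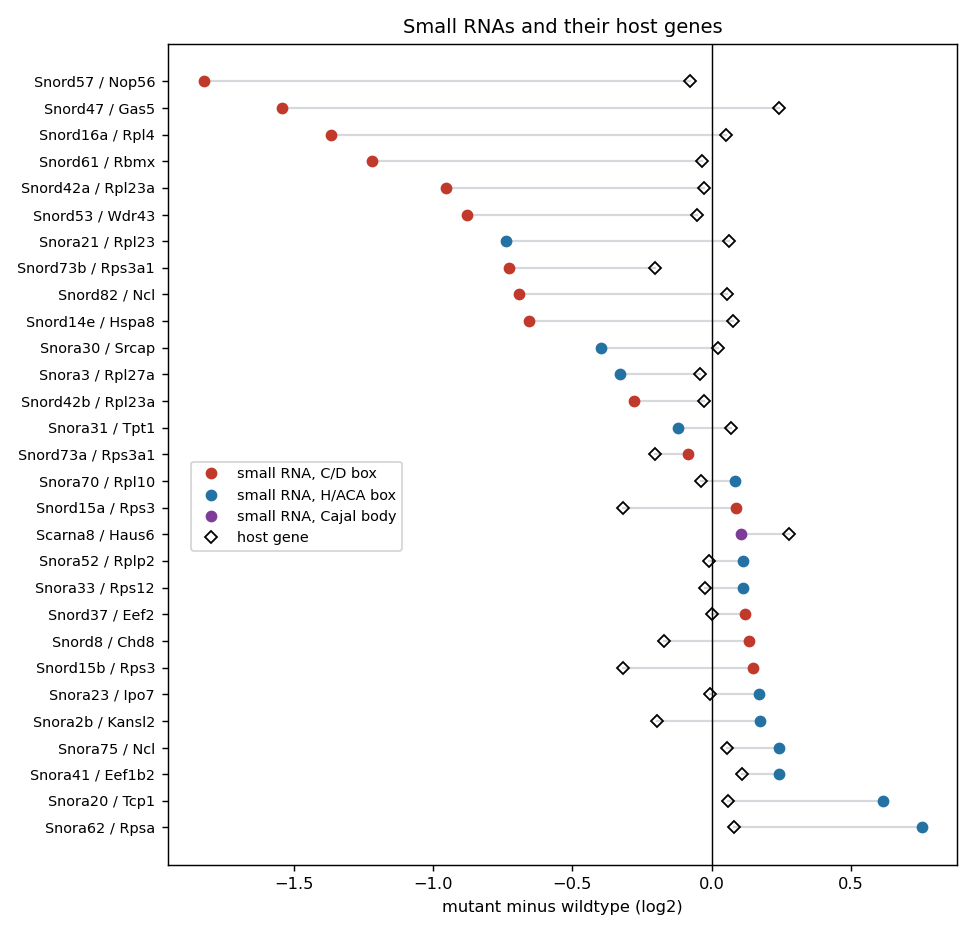
Mutant minus wildtype differences (log2) of 29 small RNAs, as filled circles coloured by class, and of their host genes, as open diamonds, joined by a line. The hosts lie between -0.32 and 0.28, while the small RNAs lie between -1.82 and 0.75.

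Members from the same host did not always have like values. Hosts that hold 2 members numbered 10, and the contrast between the members was taken within each array. In Rpl13a, Snord33 was at -1.24 and Snord35a, near background at 3.76, 4.64 and 3.75 against 4.18, 4.72 and 4.01, at 0.25. In Ncl, Snord82 was at -0.69 and Snora75 at 0.24. In both hosts the contrast was apart between the groups, at -1.49 and -0.93 (exact permutation p = 0.1 each, two-sided, the smallest possible, and 0.333 adjusted over the 10 pairs). In 2410006H16Rik, Snord49b was at 4.86, 5.88 and 7.12 against 5.97, 6.09 and 6.20, a difference of 0.13 with a wildtype SD of 1.13, beside -1.58 for Snord49a (exact permutation p = 0.2, adjusted 0.400). The contrast overlapped between the groups there and in Rack1, Rpl23a, Rps3a1, Rps3, Snhg3 and Snhg12. It was smallest in Rps3 at -0.06, Snhg3 at -0.11 and Snhg12 at -0.15 (exact permutation p = 0.6, 0.5 and 0.7).

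The spread between replicates was wide for this family at every level. Among members with a mean level of 4 to 6 the median pooled SD was 0.47, against 0.12 for all probe sets in that range, and 14 of 18 members lay above the 90th percentile of the range. Between 6 and 8 it was 0.54 against 0.14, with 17 of 18 members above that percentile. Between 8 and 10 all 4 members were above it, at a median of 0.49 against 0.090. Between 2 and 4 it was 9 of 14, at a median of 0.23 against 0.081. The 301 probe sets of microRNA genes, another class of short RNA genes, had a median pooled SD of 0.076 at a median level of 3.36. Of these, 231 were under the guide, so the range of 2 to 4 is the nearest in level.

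**Figure D5:**
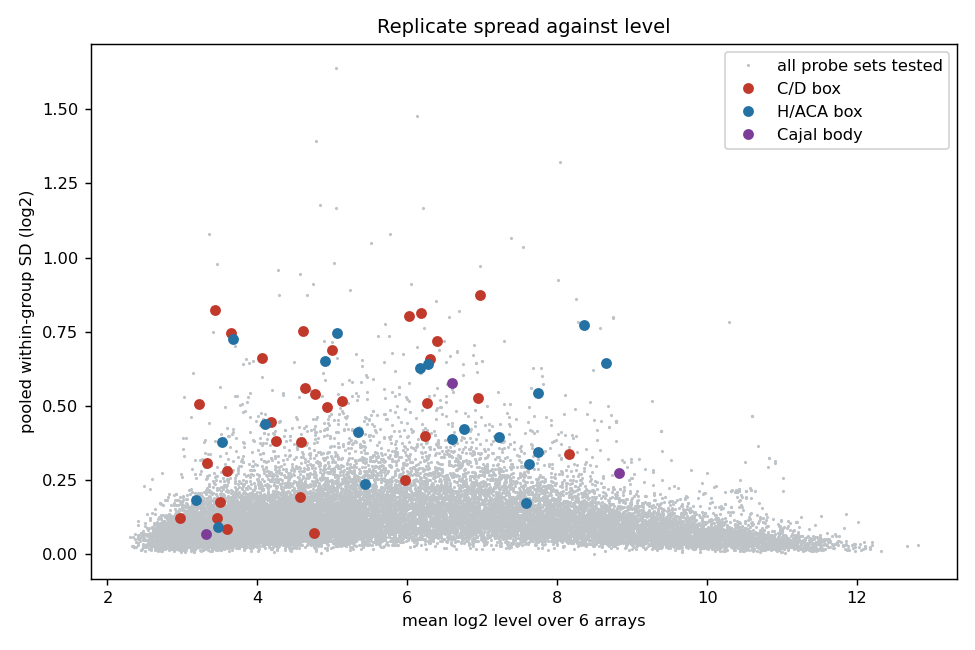
Pooled within-group SD (log2, 3 samples per group) against the mean log2 level over 6 arrays, for all 23410 probe sets tested in grey and the 54 members in colour by class. Members reach 0.87 and lie mostly above the bulk of probe sets of like level, whose median SD is 0.12 between levels 4 and 6.

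Part of this spread ran in parallel over members. Mutant 3 was the lowest mutant sample in 30 of 54 members (55.6%, against 32.2% of all probe sets tested), and mutant 2 the highest in 33 (61.1%, against 36.8%). Wildtype 2 was the lowest wildtype sample in 27 (50%, against 33.3%). Both classes had it: the mean of all 20 H/ACA box RNAs was 6.10, 5.69 and 6.08 in wildtype 1 to 3, against 6.01, 6.25 and 5.70 in mutant 1 to 3. For all 31 C/D box RNAs it was 5.18, 4.98 and 5.32, against 4.65, 4.81 and 4.41. The C/D means did not overlap between the genotypes, whereas the H/ACA means did. These means are a description, and no test was made of them.

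The C/D box RNAs that were lower by at least 1 lay within the range of lengths of the class. In the RefSeq table they were 59 to 137 nucleotides long (median 65), and the other 22 were 45 to 148 (median 69.5). Across the 31, the difference had a Pearson's r of 0.24 with length and -0.35 with mean level, over genes measured on the same 6 arrays. By host, 3 of 13 C/D box RNAs from ribosomal protein genes, 3 of 7 from noncoding genes and 2 of 10 from other protein-coding genes were lower by at least 1, and the last of the 9, Snord118, has no host.

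The proteins that assemble with these RNAs showed no calls. Of 28 genes for core proteins, assembly factors, Cajal body proteins and processing enzymes, 0 passed (limma, adjusted p under 0.05), 3 had an unadjusted p under 0.05, all lower (7.4% of all probe sets were lower at that level), and the median difference was -0.018. Every mutant sample lay below every wildtype sample in 4 of the 28, Fbl, Nop10, Shq1 and Pih1d1, and above in 0. Of all probe sets 9.66% and 10.1% did. Of the C/D core, Fbl, which encodes the methyltransferase fibrillarin, differed by -0.12 (SE 0.0554), Nop56 by -0.077, Nop58 by 0.080 and Snu13, which binds the C box fold, by -0.017 (limma, adjusted p = 0.389, 0.852, 0.607 and 0.917).

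Of the H/ACA core, Dkc1, the pseudouridine synthase dyskerin, differed by 0.050, and Nhp2 by -0.0033 and Gar1 by -0.020 (limma, adjusted p = 0.845, 0.987 and 0.905). Nop10, the smallest core protein, was at 9.27, 9.06 and 9.05 in the wildtype and at 8.85, 8.71 and 8.72 in the mutant samples. Its groups did not overlap, and the difference was -0.37 (SE 0.0819; limma, adjusted p = 0.156). Limma also gave differences of -0.31 for the assembly factor Shq1, -0.40 for Pih1d1 and -0.17 for the helicase Ruvbl1, and of -0.33 for the exosome nuclease Dis3 (adjusted p = 0.287, 0.306, 0.509 and 0.369).

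What the probe sets of these short RNAs detect is limited by the preparation. RNA was purified with the Qiagen RNeasy Micro kit, whose columns retain short RNAs poorly, and was copied by whole-transcriptome amplification. Signal from the finished small RNA, from unspliced host RNA and from freed introns cannot be told apart on these probe sets. Less RNA per oocyte and fewer oocytes holding it cannot be told apart either.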

How the data were processed

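Total RNA from 6 pools of 100 oocytes was amplified from 1 ng and labelled with biotin, per the labels' protocols, and read on Affymetrix arrays in 1 colour. The authors deposited log2 values made with Affymetrix Expression Console 1.1 and RMA, per the submitters' processing notes. RMA brings the arrays to a common distribution, so a change in total RNA cannot be seen. The array's genome build: not given in the sources used here.

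Limma 3.58.1 (R 4.3.3) was run on these values, with lmFit and eBayes, two-sided tests and no covariates, over the 23410 of 35556 probe sets with at least 1 gene symbol. P-values were adjusted over these by the Benjamini-Hochberg method, with a threshold of 0.05. SE and 95% intervals are those of the fit. The number of arrays limits the precision. The 54 members had 60 probe sets, and for 3 of the 6 genes with a pair of them the values were identical. The fit was tested on simulated data.

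Members and lists were chosen with earlier results of these data known. The counts of C/D box RNAs lower by at least 1, and lower at an unadjusted p under 0.05, were not planned. The genes named were, in the C/D and H/ACA classes, the 6 with the smallest p, the 4 brightest and the 2 with the widest spread, all Cajal body RNAs, the measured hosts of these, and 14 snoRNP protein places (8 core proteins and the 6 smallest p, with Nop10 and Fbl in both). Snord47, Snord118, Snord85, Snord49b, Snord35a, Snord55, Snord8, Snord53, Snord42a, Snord73b, Snord58b, Snord15a, Gas5, Rps3, C1qb, Ptprc and Csf1r were named after their values were seen. The same holds for Chd8, Wdr43, Rps3a1 and Rpl23a, of which Rps3a1 and Rpl23a were not recomputed in the alternatives. Alternatives were other normalizations, filters, fits and thresholds, the replicate number as a block, and leaving out each array. Gene starts of the members were not in the promoter table, so the planned search of them was not made. The comparison for 1 shared host is not reported here.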

Additional observations from a re-analysis of the deposited data

How the results depend on the processing

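The median difference of the C/D box RNAs stayed between -0.44 and -0.37 in all settings but those that drop dim probe sets (-0.69 above the background guide, -1.16 above the median level, filters on the mean of both groups that some genes pass through the wildtype samples alone) and the omissions of an array (-0.44 to -0.30). The number of C/D box RNAs lower by at least 1 was 6 to 10 in all settings, 8 to 10 when an array was left out. The number lower at an unadjusted p under 0.05 was 9 to 13, and 7 above the median level. Of the members, 0 passed in each setting except without wildtype 3, where Scarna13 passed, so the count ran from 0 to 1 over the omissions and Scarna13 from -1.55 to -0.78. At an unadjusted p under 0.05 there were 12 members, 3 hosts and 3 snoRNP protein genes, and 3443 of all probe sets.

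Over all probe sets tested, 32 passed, 1 with the replicate block, 1 with all probe sets of the table, 76 with trend and robust settings, 76 at an adjusted p under 0.1, and 1 to 18 when an array was left out. Same-numbered samples shared only a number: their deviations from the group means correlated at -0.0015, -0.031 and 0.036, and the block changed no member's call. Median centring moved the median of the hosts to -0.063.

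Of 950 recomputed values of named genes, 28 turned sign, in 14 genes, and 1 passed where it had not (Scarna13). With median centring Dkc1 and Rpl4 were at -0.0067, Snord55 at -0.030 and Srcap at -0.033. With array weights Snora33 was at -0.00039 and Snord55 at -0.026. With quantile normalization again Gar1 was at 0.021 and Nhp2 at 0.020, and with cyclic loess Gar1 was at 0.013, Nhp2 at 0.030, Rps12 at 0.0044 and Snu13 at 0.0099. As the mean of their probe sets Gas5 was at -0.063 and Rpl23 at -0.017. Over the omissions of an array the ranges were -0.022 to 0.13 for Dkc1, -0.050 to 0.015 for Gar1, -0.052 to 0.048 for Nhp2, -0.26 to 0.062 for Nop56, -0.77 to 0.12 for Snora3, -0.18 to 0.52 for Snora33, -0.41 to 0.72 for Snord49b, -0.14 to 0.12 for Snord55, -0.040 to 0.015 for Snu13 and -0.028 to 0.067 for Srcap. The cause was not tested.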

Other observations

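The 41 probe sets that list a small nucleolar RNA together with other genes were left out of the members and are described here without a gene's name of their own. Of these, 24 list the Snord116 copies of the Prader-Willi imprinted region, a tandem array expressed mainly in neurons, with only 7 different sets of values among them. All 24 were lower in the mutant, by differences of -0.46 to -0.26, and in 23 the groups did not overlap (9.66% of all probe sets had the mutant lower without overlap), at mean levels of 3.81 to 4.20, under the background guide of 4.48. The other 17, which list a small RNA with its host, a microRNA or another small RNA, had a median difference of -0.060 (range -1.49 to 0.30). In 3 of them the mutant was lower by at least 1, and in 1 the groups did not overlap with the mutant lower. Of the 41, 0 passed the threshold (limma, adjusted p under 0.05).

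Probe sets of 301 microRNA genes had a median difference of 0.023. With limma 0 of them were lower and 29 higher at an unadjusted p under 0.05, where 7.4% and 7.3% of all probe sets were, and 0 passed after adjustment.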
